A study of Mus musculus with 4 samples.

Results

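The ERVL families are endogenous retroviruses of class III, remnants of retroviral infections that now make up part of the mouse genome. In small RNA libraries of mouse testis, every sequence of 25 to 31 nt that the deposited annotation placed in the LTR class and the ERVL family was taken, given the single name under which it had most reads over all libraries, and its reads were summed per name. This gave 114 ERVL names and 51750 distinct sequences, of 842 transposon names in all (LINE, SINE and LTR classes). The names fell into 8 MERVL and MT2 names with 30492 sequences, 69 MLT2 and LTR names with 5327 sequences, and 37 other names with 15931 sequences. The name MLT2F was not counted among them. It had 6.45 and 396 RPM in the Hsf5 knockdown libraries and 207 and 389 RPM in the wild-type libraries, where RPM stands for reads per 1000000 counted reads of a library.

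The libraries came from whole testes of mice 16 days after birth, 2 with the genotype Hsf5 knockdown and 2 wild type, labelled as biological replicates. The labels give no strain, no method of knockdown and no sign that equal replicate numbers shared a litter or a day. Hsf5 encodes a heat shock factor of the testis, a transcription factor needed for spermatocytes to pass through meiosis, and the series asks how piRNAs and LINE1 elements change when it is reduced. Small RNA libraries do not measure Hsf5 mRNA, so the degree of knockdown was not checked. Each library is a whole testis, in which fewer cells of a type and less RNA per cell cannot be told apart.

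MERVL is the youngest ERVL of the mouse. Its internal part codes for retroviral proteins, its long terminal repeat MT2_Mm is the promoter that becomes active in the early embryo when the genome is first transcribed, and MT2C_Mm, MT2A, MT2B, MT2B1 and MT2B2 are the terminal repeats of older relatives. MLT2 and most LTR names are fossils of ERVL elements that inserted before the mammalian orders parted and no longer code for protein. In the testis, PIWI proteins carry piRNAs that recognise such transcripts by base pairing. The shorter piRNAs are held mainly by MILI and the longer ones mainly by MIWI, both usually with U as the first base. When a piRNA guides the cutting of a transcript of the opposite strand, the product starts 10 bases from the guide's 5′ end, so that a guide with U at base 1 gives a product with A at base 10. This is the ping-pong cycle.

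Abundant single sequences are shown 5′ to 3′ with T standing for U, base 1 and base 10 in capitals, and coordinates in GRCm39. They carry only a part of the reads of their sets. The first set holds the most abundant sequences of the MERVL and MT2 names, all of them MT2C_Mm. The first and the second start at the same base of chromosome 17 (chr17:27557556-27557581 and chr17:27557556-27557583, plus strand), in an intron of the long non-coding gene Gm10505. The third had no exact place in the genome, and its first 27 bases are the chromosome 17 sequence of the pair printed further on, with 1 more base at the 3′ end.
MT2C_Mm, rank 1: TagtaaggaTttgtggatgactcaca
MT2C_Mm, rank 2: TagtaaggaTttgtggatgactcacagt
MT2C_Mm, rank 3: TggaagtccAagatctagcagttgctct

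The second set holds the most abundant sequences of the MLT2 and LTR names, all of them LTR67B and all on the minus strand of chromosome 17 (chr17:27524453-27524479, chr17:27523885-27523911 and chr17:27523886-27523911), opposite to an intron of the long non-coding gene Gm65436. They are the leading single sequences of the old elements, and most reads of that set came from other sequences.
LTR67B, rank 1: TcggcactcGatctacagcaaggcatc
LTR67B, rank 2: TcaatttggActctaaggattctggga
LTR67B, rank 3: TcaatttggActctaaggattctggg

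The MT2C_Mm leader had 144 and 124 RPM in the knockdown libraries and 109 and 102 RPM in the wild type. Both knockdown values lay above both wild-type values. The LTR67B leader had 408 and 89.9 RPM in the knockdown and 206 and 181 RPM in the wild type. Its knockdown libraries lay on either side of the wild type, 1 far above it and 1 far below.

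The third set shows sequences of single insertions outside chromosome 17, each the most abundant 1-place sequence at a main place of its name. These were chosen after their values were seen.
MERVL-int (chr10:85592613-85592638, plus, intergenic): TgtatttcgTtcctggaaagactgtg
MT2B1 (chr7:73454441-73454471, minus, intron of Gm10619): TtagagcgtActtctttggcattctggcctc
MT2B1 (chr5:113477975-113478001, minus, intron of 4930405N21Rik): TagtcaagtTggcaaccaagaattagc
MLT2B5 (chr6:81877140-81877166, minus, exon of 1700009C05Rik): TgagattttCtctgtgactctgccagg
MER68 (chr9:67633690-67633715, minus, intron of Gm30936): TagcaggacTctcaggactcagtgtg
The genes named are long non-coding genes transcribed on the strand of the reads. The MT2B1 sequence of chromosome 7 had 0 and 879 reads in the knockdown and 294 and 330 reads in the wild type. That of chromosome 5 had 0 and 207 reads in the knockdown and 147 and 387 in the wild type. Knockdown replicate 1 therefore held neither of them, and its 0 allows up to 0.312 RPM (3 counts).

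Knockdown replicate 1 stood apart from the other libraries before any ERVL name was considered. Reads of 25 to 31 nt made up 45.2% and 64.4% of counted reads in the knockdown and 51.7% and 57.5% in the wild type, and within them the share of 29 to 31 nt was 18.2% and 37.6% in the knockdown and 33.0% and 31.8% in the wild type. Total counts ranged from 9260452 to 11117460 reads per library. The ERVL names accounted for 1.77% and 1.78% of all piRNA-length reads in the knockdown, against 1.52% and 1.64% in the wild type. Over 106 ERVL names the counts of the knockdown libraries differed from each other by a chi-square of 134 per degree of freedom, and those of the wild-type libraries by 31.1, so neither group held 1 library deposited again. Tests of 2 against 2 libraries have 6 assignments, and the smallest exact permutation p they can give is 0.33. All p-values measure the spread between these libraries, whose separate origin is known only from the labels.

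ERVL names together had 8027 and 11461 RPM in the knockdown and 7840 and 9438 RPM in the wild type, and the groups overlapped. MERVL and MT2 names had 4239 and 6081 RPM in the knockdown (5160 ± 1303, SD, n = 2) and 4164 and 4351 RPM in the wild type (4257 ± 132, SD, n = 2). The difference of 0.25 in log2 RPM did not exceed the spread (exact two-sided permutation p = 0.667), and it was 0.51 without knockdown replicate 1 and -0.0060 without knockdown replicate 2. MLT2 and LTR names had 1960 and 1828 RPM in the knockdown (1894 ± 93.3) and 1508 and 1661 RPM in the wild type (1585 ± 108). Both knockdown libraries were higher here, by 0.26 in log2 RPM, at the smallest p the design allows (exact two-sided permutation p = 0.33). Scaled by mature miRNA reads in place of all counted reads, the difference was 0.086 and the groups overlapped, and that of MERVL and MT2 names was 0.082 (exact two-sided permutation p = 1 each). Without reads of 1 place in a pair of piRNA loci on chromosome 17, described next, the difference of MLT2 and LTR names in log2 RPM was 0.02, with 454 and 937 RPM in the knockdown and 552 and 749 RPM in the wild type. Reads with no exact place stayed in that count. The other ERVL names had 1828 and 3552 RPM in the knockdown and 2168 and 3426 RPM in the wild type.

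All 793 transposon names with enough reads were tested together by edgeR (quasi-likelihood, Benjamini-Hochberg adjustment), and 0 passed the threshold of 0.05, which is 0.0% of them. All 8 MERVL and MT2 names, 63 of the 69 MLT2 and LTR names and 35 of the 37 others reached the minimum for the test, and 0 of these 106 were called. At an unadjusted p under 0.05 there were 2 ERVL names, LTR41C and MLT2B1, both lower in the knockdown, of 16 among all names, and DESeq2 called 0. The log2 difference was positive for 6 of the 8 MERVL and MT2 names (median 0.24), for 34 of 63 MLT2 and LTR names (median 0.05) and for 16 of 35 others (median -0.04), beside 384 of all 793 names (median -0.01). Without overlap of the groups, the knockdown had the higher RPM in 13 ERVL names and the lower RPM in 15, and the same held for 9.96% and 10.6% of all names tested. Among MERVL and MT2 names these were MT2C_Mm and MT2_Mm, both higher, and none lower. Of all 114 names, 44 had a mean under 1 RPM, 35 of them MLT2 and LTR names.

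**Figure D1:**
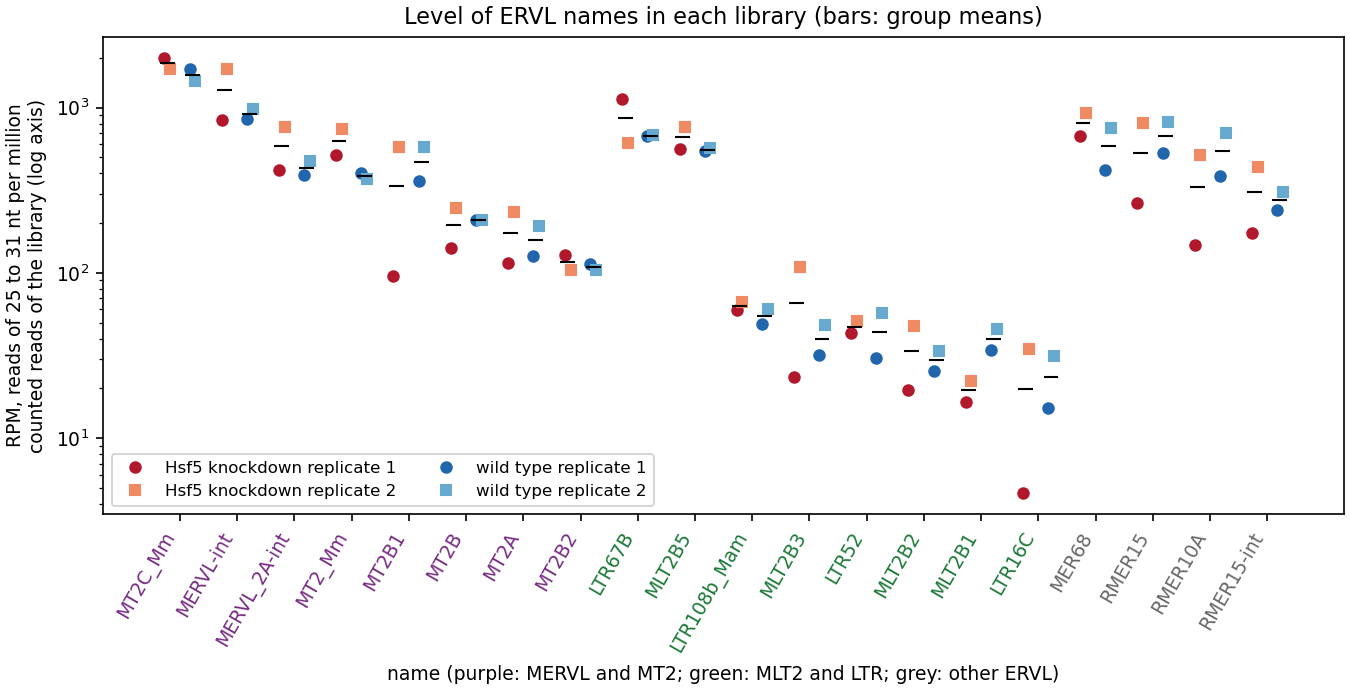
Level of 20 ERVL names in RPM on a log axis, with red points for the 2 Hsf5 knockdown libraries and blue points for the 2 wild-type libraries of each name, circles for replicate 1, squares for replicate 2 and black bars at the group means. MT2C_Mm and MT2_Mm have both red points above both blue ones, while MT2B1, RMER15, RMER10A and LTR16C have the red circle of knockdown replicate 1 far below the other points.

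The internal part of MERVL and its own terminal repeat were described first. MERVL-int, the protein-coding part, had 845 and 1699 RPM in the knockdown and 852 and 977 RPM in the wild type. Knockdown replicate 2 was the high library, and knockdown replicate 1 lay below both wild-type values. MERVL_2A-int, the internal part of a related subfamily, had 416 and 759 RPM in the knockdown and 392 and 475 RPM in the wild type, with the same library high. MT2_Mm had 517 and 741 RPM in the knockdown (629 ± 159) and 403 and 370 RPM in the wild type (387 ± 23.8). Both knockdown libraries were above both wild-type libraries. The log2 difference of MT2_Mm was 0.72 with a standard error of 0.35, the largest of the 8 MERVL and MT2 names, at an unadjusted p of 0.0603 and an adjusted p of 0.996 (edgeR, Benjamini-Hochberg). It stayed between 0.57 and 0.88 when each library was left out in turn. For MERVL-int the log2 difference was 0.46 ± 0.34 (SE) and for MERVL_2A-int 0.44 ± 0.35 (SE), with an adjusted p of 0.996 each in the same edgeR test with Benjamini-Hochberg adjustment.

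The terminal repeats of the older MERVL relatives behaved differently from each other. MT2C_Mm, the most abundant ERVL name, had 1981 and 1722 RPM in the knockdown and 1712 and 1451 RPM in the wild type. Its log2 difference was 0.31 ± 0.36 (SE), and it was -0.11 without knockdown replicate 1. MT2B1 had 95.01 and 575 RPM in the knockdown and 358 and 574 RPM in the wild type. Knockdown replicate 1 was alone at the low end, and the other knockdown library was level with the higher wild-type library. MT2B had 142 and 246 RPM in the knockdown and 207 and 208 RPM in the wild type. MT2A had 115 and 234 RPM in the knockdown and 126 and 191 RPM in the wild type. In both names the knockdown libraries lay on either side of the wild type. MT2B2 was the flattest, with 127 and 104 RPM in the knockdown and 113 and 105 RPM in the wild type.

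Among the old elements LTR67B and MLT2B5 made up most reads, and with LTR108b_Mam they held 82.6% of the reads of the MLT2 and LTR names. LTR67B had 1122 and 612 RPM in the knockdown and 669 and 682 RPM in the wild type. MLT2B5 had 559 and 761 RPM in the knockdown and 547 and 565 RPM in the wild type. The 2 names were thus high in different knockdown libraries, LTR67B in replicate 1 and MLT2B5 in replicate 2. LTR108b_Mam had 59.9 and 66.9 RPM in the knockdown and 48.8 and 60.1 RPM in the wild type. The next 5 names by level, MLT2B3, LTR52, MLT2B2, MLT2B1 and LTR16C, had 4.68 to 108 RPM in the knockdown and 15.3 to 56.9 RPM in the wild type.

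MLT2B1 had 16.6 and 22.2 RPM in the knockdown and 34.1 and 45.9 RPM in the wild type. Both knockdown libraries were below both wild-type libraries. The log2 difference was -0.99 ± 0.41 (SE), with an unadjusted p of 0.0303 and an adjusted p of 0.996 (edgeR, Benjamini-Hochberg). A single sequence gave 51.5% of its reads, and without that sequence the difference was 0.14. LTR41C had 4.57 and 6.61 RPM in the knockdown and 9.89 and 23.3 RPM in the wild type, with a log2 difference of -1.50 ± 0.44 (SE), an unadjusted p of 0.0042 and an adjusted p of 0.996 (edgeR, Benjamini-Hochberg). A single sequence gave 68.6% of its reads, and without it the difference was 0.72. LTR82B, the higher name of lowest unadjusted p after MT2_Mm, had 1.98 and 1.28 RPM in the knockdown and 0.63 and 0.54 RPM in the wild type.

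Of the names outside both sets, MER68, an old mammalian terminal repeat, was the most abundant, with 676 and 927 RPM in the knockdown and 418 and 752 RPM in the wild type. RMER15 had 265 and 804 RPM in the knockdown and 533 and 818 RPM in the wild type. RMER10A had 147 and 517 RPM in the knockdown and 386 and 700 RPM in the wild type. In both RMER names knockdown replicate 1 was the lowest library and knockdown replicate 2 lay inside the wild-type range. RMER15-int had 174 and 439 RPM in the knockdown and 238 and 309 RPM in the wild type, with the knockdown libraries at either end.

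Each sequence was matched exactly to GRCm39, and the young and old elements differed in how many places their reads had. Reads of MERVL-int, MERVL_2A-int and MT2_Mm came mostly from sequences with over 10 places (66.96%, 56.2% and 82.0% of reads), and the median read had 399, 245 and 1067 places. LTR67B, MLT2B5, LTR108b_Mam and MER68 came from sequences with 1 place for 88.4%, 86.6%, 76.5% and 73.0% of reads, and nearly all the rest had no exact place. MT2C_Mm lay between, with 53.3% at 1 place and 24.4% at over 10. Over 50% of reads had 1 place for 4 of the 8 MERVL and MT2 names and for 63 of the 69 MLT2 and LTR names.

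**Figure D2:**
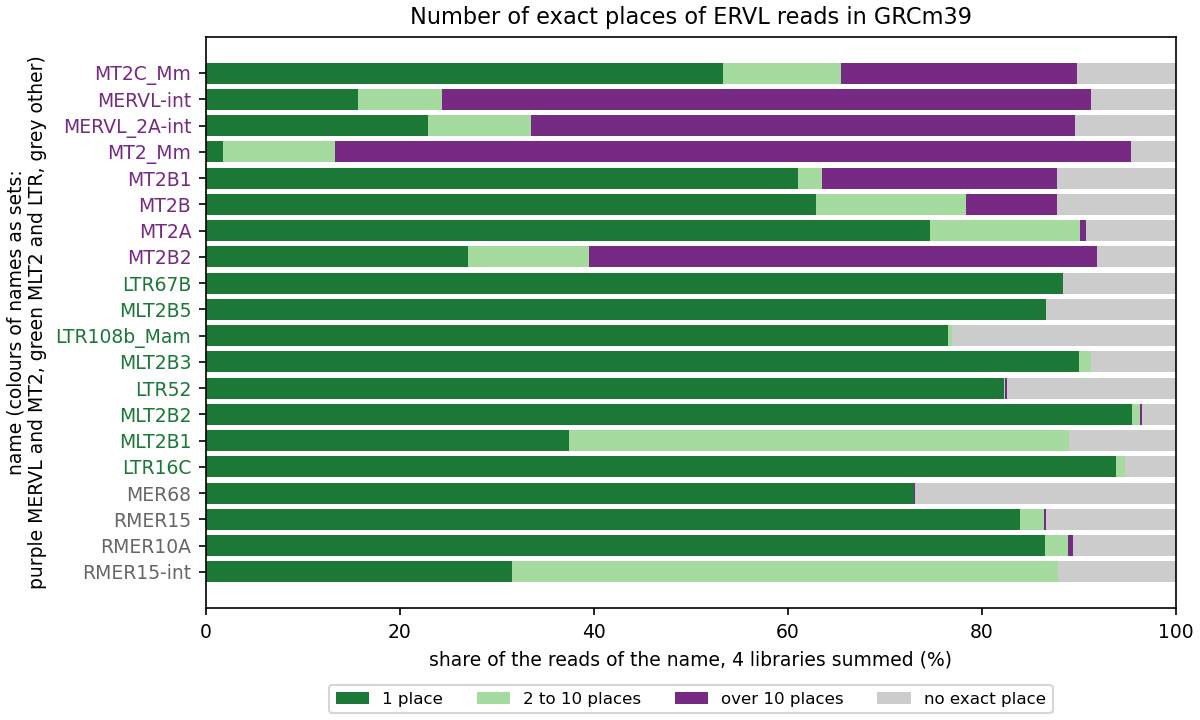
Share of the reads of 20 ERVL names, summed over 4 libraries, by the number of exact places of their sequences in GRCm39 (dark green 1 place, light green 2 to 10, purple over 10, grey none). Purple fills 82.0% of the MT2_Mm bar and dark green 88.4% of the LTR67B bar.

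Reads with 1 place showed which insertions the old names stood for. Chromosome 17 holds paired piRNA loci that are transcribed away from each other and in which the MT2C_Mm and LTR67B sequences printed first lie. Reads with their only place there made up 76.9% and 48.7% of the MLT2 and LTR reads in the knockdown and 63.4% and 54.9% in the wild type. For MERVL and MT2 reads these shares were 24.3% and 15.9% in the knockdown and 20.2% and 16.0% in the wild type. A single LTR67B insertion at chr17:27523847-27524563 (minus) gave 86.7% of LTR67B reads, with 1013 and 531 RPM in the knockdown and 563 and 569 RPM in the wild type. A single MT2C_Mm insertion at chr17:27557516-27557813 (plus), which reaches an exon of Gm10505, gave 49.1% of MT2C_Mm reads, with 976 and 928 RPM in the knockdown and 806 and 655 RPM in the wild type. A single MLT2B5 insertion at chr17:27569278-27569478 (plus) gave 54.8% of MLT2B5 reads, with 422 and 296 RPM in the knockdown and 351 and 271 RPM in the wild type. LTR52 came from 1 sequence in the same loci for 81.5% of its reads. It had 35.6 and 42.2 RPM in the knockdown and 24.6 and 45.5 RPM in the wild type. Around LTR67B, reads that the annotation names as piRNA clusters, on the same strand within 15 kb, had 39779 and 28467 RPM in the knockdown and 26184 and 28413 RPM in the wild type, so that knockdown replicate 1 was the highest library both at the insertion and beside it. Around LTR52 they had 34720 and 24373 RPM in the knockdown and 24718 and 24242 RPM in the wild type, with knockdown replicate 1 highest beside the LTR52 sequence but not at it.

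Outside chromosome 17, up to 2 main places of each named ERVL name gave 33 places, of which 26 had any read named as a piRNA cluster beside them and 7 had none. No minimum number of such reads was set. At the MT2B2 place chr6:122464887-122465533 they had 0 and 0.092 RPM in the knockdown and 0 and 0.108 RPM in the wild type, under the name of a chromosome 10 locus. A second MLT2B5 insertion, chr6:81876931-81877314 (minus, exon of 1700009C05Rik), gave 29.5% of MLT2B5 reads, with 45.4 and 347 RPM in the knockdown and 119 and 197 RPM in the wild type. It was lowest in knockdown replicate 1, while the chromosome 17 insertion of the same name was highest there. MER68 came for 71.6% of its reads from chr9:67633626-67633740 (minus, intron of Gm30936), with 497 and 649 RPM in the knockdown and 298 and 544 RPM in the wild type. LTR108b_Mam came for 76.5% from chr7:29837845-29838197 (plus, exon of the zinc finger gene Zfp382), with 45.7 and 51.8 RPM in the knockdown and 37.1 and 45.6 RPM in the wild type.

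Knockdown replicate 1 had few or no reads at some of these insertions. Of 43 main places of the named ERVL names, up to 2 for each name, 9, belonging to 7 names, had at most 3 reads in knockdown replicate 1 and at least 30 in each other library. MT2B1 at chr7:73454372-73454705 (minus, intron of Gm10619), with 27.8% of its reads, had 0 and 2109 reads in the knockdown and 1075 and 1389 reads in the wild type. Flanking piRNA cluster reads within 15 kb had 0.936 and 8409 RPM in the knockdown and 5362 and 9020 RPM in the wild type. MT2B1 at chr5:113477973-113478013 (minus, intron of 4930405N21Rik), with 10.6% of its reads, had 0 and 597 reads in the knockdown and 342 and 811 in the wild type, and its flanks had 1.14 and 5237 RPM in the knockdown and 3221 and 5577 RPM in the wild type. RMER10A at chr9:54145620-54146045 (minus, intron of the aromatase gene Cyp19a1) had 2 and 1401 reads in the knockdown and 1067 and 1870 in the wild type. The main LTR41C place at chr7:73445144-73445169 (minus), with 69.0% of its reads, had 0 and 32 reads in the knockdown and 88 and 185 in the wild type. At both MT2B1 places the piRNA cluster reads beside them were thus nearly missing from the library that had no ERVL read. At each of the 9 places the flanking reads were lowest in knockdown replicate 1, but not always near 0. Beside the LTR16C place at chr7:69567510-69567535 they had 81.4 and 4841 RPM in the knockdown and 2735 and 4829 RPM in the wild type. The other knockdown library held ERVL reads at all 9 places, and what sets these places apart was not tested.

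Reads of the internal part of MERVL came from many copies, but 1-place reads picked out some. The largest share, 9.71% of MERVL-int reads of all libraries summed, lay at chr10:85589042-85594010 (plus, intergenic), beside reads annotated as a piRNA cluster. Those flanking reads had 323 and 4219 RPM in the knockdown and 1867 and 3642 RPM in the wild type. The place itself had 11.1 and 177 RPM in the knockdown and 97.1 and 137 RPM in the wild type, lowest in knockdown replicate 1. Its leading sequence, printed above, had 15 and 153 reads in the knockdown and 48 and 72 in the wild type. MERVL_2A-int had 6.15% of its reads at chr8:92924535-92925487 (plus, intron of Gm64122), with 28.1 and 51.9 RPM in the knockdown and 12.4 and 34.4 RPM in the wild type. For MT2_Mm the largest single place held 0.243% of reads, so that no insertion could be named as its source.

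Length differed between the MERVL and MT2 names and the MLT2 and LTR names, each taken as a set, in every library. Reads of 29 to 31 nt took 23.9% and 46.2% of MERVL and MT2 reads in the knockdown and 36.5% and 35.6% in the wild type. For MLT2 and LTR reads the shares were 10.1% and 25.5% in the knockdown and 21.2% and 19.2% in the wild type. MERVL and MT2 names were higher in 4 of 4 libraries, on average 35.5% against 19.0%, by 16.6 ± 2.98 points (SD, n = 4, exact two-sided sign-flip permutation p = 0.13, the smallest that 16 sign patterns allow). MERVL-int, MERVL_2A-int and MT2_Mm alone averaged 44.6%, which was 25.6 points above the MLT2 and LTR names. Between knockdown and wild type the 29 to 31 nt share differed by -1.01 points for MERVL and MT2 names and -2.40 points for MLT2 and LTR names (exact two-sided permutation p = 1 each). The knockdown libraries lay on either side of the wild type in both sets, as they did for all 25 to 31 nt reads.

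**Figure D3:**
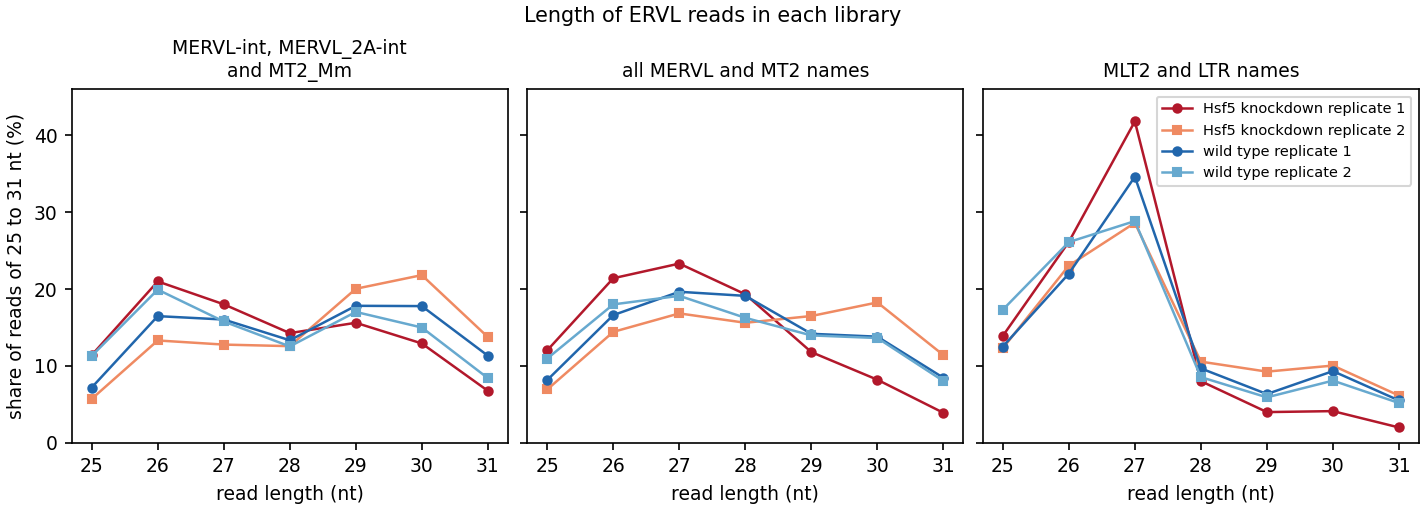
Share of reads at each length from 25 to 31 nt for MERVL-int, MERVL_2A-int and MT2_Mm together (left), all MERVL and MT2 names (middle) and MLT2 and LTR names (right), 1 line per library, red for Hsf5 knockdown and blue for wild type. The lines of the right panel are highest at 27 nt, where they reach 41.8% in knockdown replicate 1, while those of the left panel peak at 26 nt or beyond 28 nt and rise from 28 to 29 nt in every library.

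The mode of the MLT2 and LTR reads was 27 nt in all 4 libraries, with 41.8% and 28.6% of reads in the knockdown and 34.6% and 28.8% in the wild type. Reads of 30 nt were slightly more than those of 29 nt in every library, with 4.13% and 10.05% in the knockdown and 9.33% and 8.09% in the wild type. The most abundant LTR67B sequence printed above is 27 nt long and made up 28.4% of LTR67B reads. MERVL-int, MERVL_2A-int and MT2_Mm had 2 modes, at 26 nt (21% and 13.3% in the knockdown, 16.5% and 19.9% in the wild type) and beyond 28 nt, where reads of 29 nt took 15.6% and 20.04% in the knockdown and 17.8% and 17.03% in the wild type. Among single names of the MERVL and MT2 set the mean 29 to 31 nt share ran from 19.3% for MT2A to 47.5% for MT2_Mm. Among the 8 most abundant old names it ran from 0.14% for LTR52 to 41.3% for MLT2B3, so that the ranges overlapped. MT2B1 showed the widest span, with 9.63% and 59.3% in the knockdown and 53.3% and 51.9% in the wild type. The missing chromosome 7 sequence of MT2B1 is 31 nt long.

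First base and base 10 also differed between the sets. U stood first in 85.6% and 79.9% of MERVL and MT2 reads in the knockdown and 83.1% and 83.2% in the wild type, and in 91.0% and 93.1% of MLT2 and LTR reads in the knockdown and 90.0% and 89.8% in the wild type. The MERVL and MT2 set was lower in 4 of 4 libraries, by -8.01 points on average (exact two-sided sign-flip permutation p = 0.13), and by -2.34 points with each distinct sequence counted once. A stood at base 10 in 34.1% and 40.1% of MERVL and MT2 reads in the knockdown and 37.7% and 36.9% in the wild type, and in 26.6% and 32.2% of MLT2 and LTR reads in the knockdown and 24.3% and 26.9% in the wild type. The MERVL and MT2 set was higher in 4 of 4 libraries, by 9.72 points on average (exact two-sided sign-flip permutation p = 0.13). Without the 1-place reads of the chromosome 17 loci the 3 differences were 13.8 points for 29 to 31 nt, -7.74 points for U at base 1 and 18.7 points for A at base 10. Each was of 1 sign in 4 of 4 libraries (exact two-sided sign-flip permutation p = 0.13). Reads with no exact place stayed in. They were 46.8% and 23.1% of the remaining MLT2 and LTR reads in the knockdown and 35.9% and 30.6% in the wild type. For MERVL and MT2 reads these shares were 11.1% and 11.1% in the knockdown and 12.8% and 11.7% in the wild type. How many of them came from the chromosome 17 loci was not tested. The base 10 share of old names was set by few sequences. It was 98.6% on average for LTR52, which is nearly 1 sequence, and 13.1% for MLT2B5. For LTR67B it was 32% and 58.1% in the knockdown and 31.1% and 34.1% in the wild type, and its 2 leading start sites, printed above, carry G and A at base 10.

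Within the MERVL and MT2 set the number of places went with these features. Reads of 1 place had U first in 91.6% and 91.1% in the knockdown and 91.0% and 90.9% in the wild type, close to the old names. Reads with over 10 places had U first in 80.9% and 69.9% in the knockdown and 75.6% and 75.7% in the wild type, and A at base 10 in 35.6% and 47.3% in the knockdown and 41.8% and 43.0% in the wild type. The level of the many-place reads was 1993 and 2677 RPM in the knockdown and 1718 and 1742 RPM in the wild type. Both knockdown libraries were higher, by 0.42 in log2 RPM (exact two-sided permutation p = 0.33). The difference was 0.63 without knockdown replicate 1, 0.20 without knockdown replicate 2, and 0.25 with overlapping groups when scaled by mature miRNA reads.

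Strand was read from full-length MERVL copies. In GRCm39, 488 copies were found by a stop-free frame of at least 1100 codons (median 1182) among clusters of MERVL-int and MERVL_2A-int places, and 73.0% of the reads of MERVL-int, MERVL_2A-int and MT2_Mm had a place in them. All 10508 sequences placed there lay on 1 strand relative to the copies, 0 being ambiguous. Antisense reads, which can pair with the retroviral RNA, had 1017 and 1141 RPM in the knockdown and 748 and 874 RPM in the wild type. Sense reads, which have the orientation of that RNA, had 479 and 1171 RPM in the knockdown and 420 and 320 RPM in the wild type. From which transcripts they came was not tested. Both strands were higher in both knockdown libraries, by 0.41 in log2 RPM for antisense and 1.03 for sense reads (exact two-sided permutation p = 0.33 each). The sense difference was 1.68 without knockdown replicate 1 and 0.38 without knockdown replicate 2, and the antisense difference was 0.50 and 0.33 without them. Scaled by mature miRNA reads, the differences were 0.24 for antisense reads, with overlapping groups, and 0.86 for sense reads. The sense share was 32% and 50.7% in the knockdown and 36.0% and 26.8% in the wild type, so that knockdown replicate 2 was the single library with as many sense as antisense reads, and the groups overlapped. For MERVL-int alone sense reads had 227 and 564 RPM in the knockdown and 200 and 158 RPM in the wild type. For MT2_Mm they had 173 and 424 RPM in the knockdown and 151 and 105 RPM in the wild type.

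**Figure D4:**
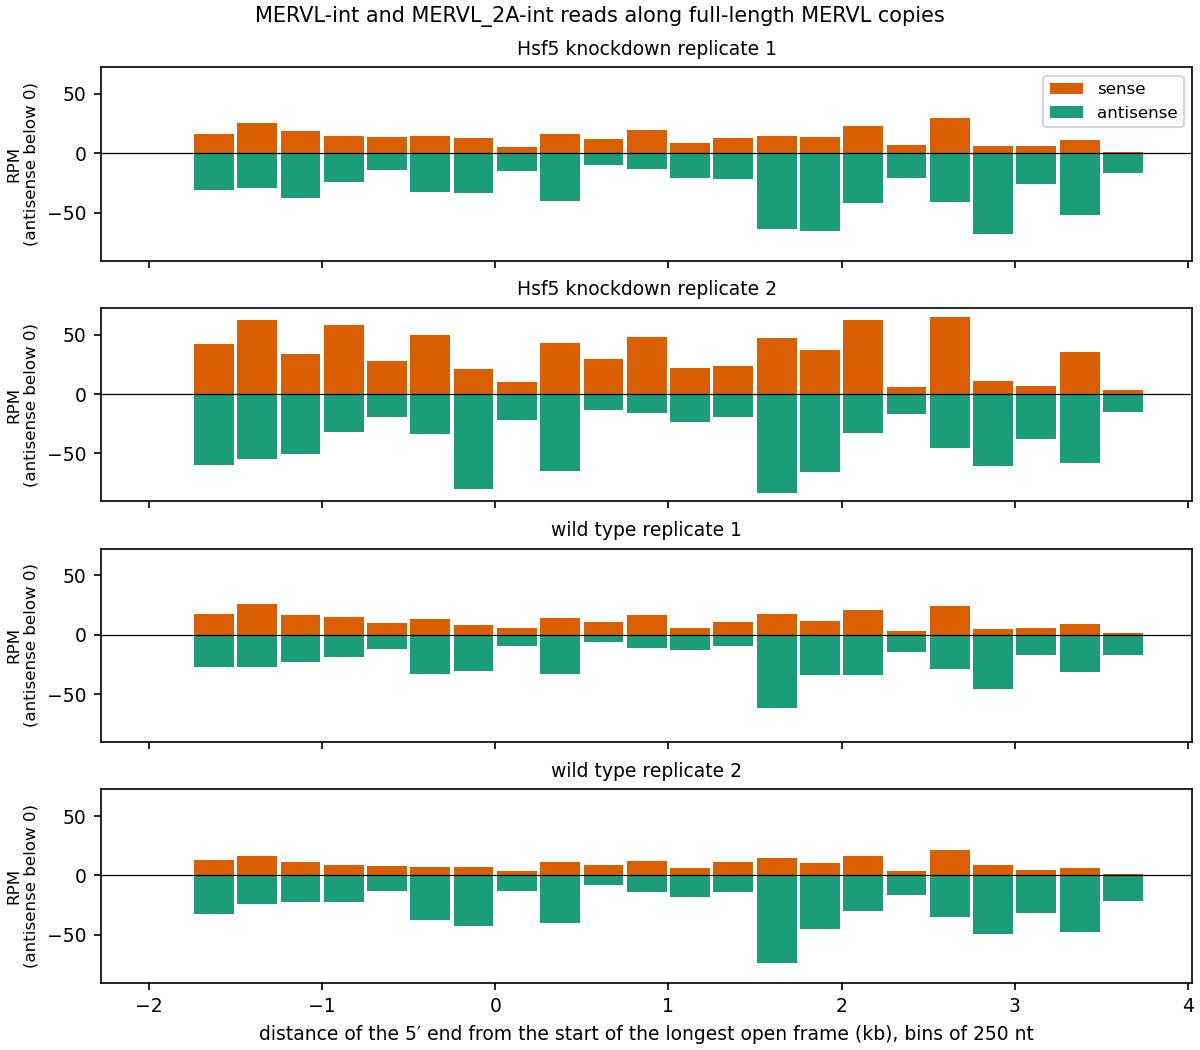
RPM of MERVL-int and MERVL_2A-int reads along full-length MERVL copies in bins of 250 nt, as the distance of the read's 5′ end from the start of the longest stop-free frame, with sense reads upward in orange and antisense reads downward in green, the 2 Hsf5 knockdown libraries above the 2 wild-type libraries. Sense reads are spread along the whole element, and the tallest antisense bin starts at 1500 nt in 3 panels and at 2750 nt in that of knockdown replicate 1.

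Sense reads were found along the whole internal part. In the bin that starts 2500 nt after the start of the frame they had 29.5 and 65.1 RPM in the knockdown and 24.2 and 21.7 RPM in the wild type. In the bin that starts 1500 nt before it they had 25.5 and 62.4 RPM in the knockdown and 25.8 and 16.3 RPM in the wild type. Antisense reads were also spread along the element. The bin from 1500 nt held 8.92% and 9.20% of them in the knockdown and 11.5% and 11.3% in the wild type, with 64.0 and 83.1 RPM in the knockdown and 62.1 and 73.5 RPM in the wild type. It was the highest antisense bin of both wild-type libraries and of knockdown replicate 2, and the third highest of knockdown replicate 1.

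Sense and antisense MERVL reads differed in the same features as the MERVL and MT2 set and the MLT2 and LTR set. Reads of 29 to 31 nt took 58.2% and 71.4% of sense reads in the knockdown and 61.3% and 63.6% in the wild type, against 23.5% and 42.6% of antisense reads in the knockdown and 39.6% and 31.1% in the wild type. Averages were 63.6% for sense and 34.2% for antisense reads, 29.4 ± 5.65 points apart (SD, n = 4, exact two-sided sign-flip permutation p = 0.13). U stood first in 59.4% of sense and 85.4% of antisense reads on average, a difference of -26.0 ± 3.30 points, and A at base 10 in 53.3% and 31.4%, a difference of 21.9 ± 3.90 points, both of 1 sign in 4 of 4 libraries (exact two-sided sign-flip permutation p = 0.13 each). Among sense reads that did not start with U, A stood at base 10 in 71.6% and 69.7% in the knockdown and 69.9% and 75.4% in the wild type. Antisense reads that did not start with U were lower in every library, with 68.7% and 69.2% in the knockdown and 66.0% and 58.4% in the wild type. For MERVL-int alone such sense reads had 85.0% and 85.0% in the knockdown and 80.4% and 86.1% in the wild type. Its antisense reads had 73.0% and 71.2% in the knockdown and 70.2% and 58.8% in the wild type. MERVL_2A-int was also higher in sense in every library, whereas MT2_Mm was higher in antisense in both knockdown libraries and lower in both wild-type libraries. Among antisense reads that started with U, A stood at base 10 in 21.5% and 29.8% in the knockdown and 25.5% and 25.4% in the wild type. Sense reads that started with U had 39.9% and 46.1% in the knockdown and 37.5% and 39.9% in the wild type. Over all 25 to 31 nt reads of the libraries A at base 10 ranged from 24.5% to 26.7%. Between the groups, U stood first in 57.8% and 58.7% of sense reads in the knockdown and 61.7% and 59.3% in the wild type, lower in both knockdown libraries, with a mean difference of -2.25 points (exact two-sided permutation p = 0.33). For A at base 10 of sense reads the groups overlapped, with 53.3% and 55.8% in the knockdown and 49.9% and 54.3% in the wild type.

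**Figure D5:**
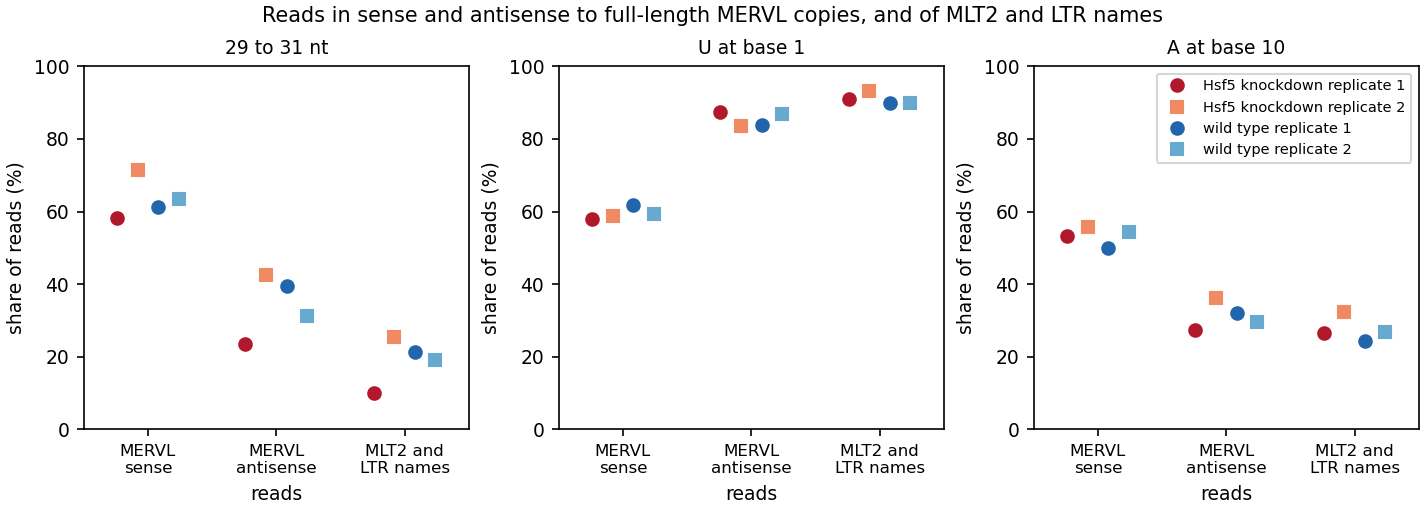
Share of 29 to 31 nt reads (left), of U at base 1 (middle) and of A at base 10 (right) among sense and antisense reads of full-length MERVL copies and among MLT2 and LTR reads, 1 point per library, red for Hsf5 knockdown and blue for wild type. In each panel antisense MERVL points lie nearer to the MLT2 and LTR points than the sense points do, and red and blue points are mixed or close together.

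The MT2C_Mm insertion of chromosome 17 and MERVL shared sequence. The 298 nt of that insertion from which the reads came aligned to the 5′ side of 484 of the 488 MERVL copies in the opposite orientation, over a median of 295 bases at a median identity of 87.5%. Reads of this insertion are therefore antisense to the terminal repeat of MERVL. The most abundant pair of MERVL and MT2 sequences whose first 10 bases can pair joins an antisense read of this insertion (chr17:27557625-27557651, plus, intron of Gm10505) to an MT2_Mm read in sense to MERVL, which has 3 exact places. The capitals mark the first 10 bases of each, which are reverse complements.
MT2C_Mm, antisense: TGGAAGTCCAagatctagcagttgctc
MT2_Mm, sense: TGGACTTCCAttcacaactgcgactgaacc

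The MT2C_Mm partner had 441 and 88 reads in the knockdown and 261 and 263 in the wild type. The MT2_Mm partner had 46 and 214 reads in the knockdown and 43 and 0 in the wild type. The antisense read was lowest in knockdown replicate 2, the library in which the sense read was highest. Both begin with U. The A at base 10 of each follows from the U of the other and from the pairing by which they were chosen.

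Opposite-strand overlaps were counted at the genomic places of the reads. Among overlaps of 1 to 20 nt between 5′ ends, weighted by reads, those of 10 nt took 27.4% and 41.2% for MERVL and MT2 names in the knockdown and 35.2% and 16.0% in the wild type. For MLT2 and LTR names they took 16.9% and 32.5% in the knockdown and 18.2% and 5.52% in the wild type. The MERVL and MT2 share was higher in 4 of 4 libraries, by 11.7 points on average (exact two-sided sign-flip permutation p = 0.13). With each distinct sequence counted once the difference was 0.96 points and of mixed sign (exact p = 0.625). The 10 nt overlap held more reads than any other from 1 to 20 nt in knockdown replicate 2 and wild-type replicate 1 for MERVL and MT2 names, and in knockdown replicate 2 alone for MLT2 and LTR names. In the other libraries overlaps of 14, 16, 17 or 20 nt led, with 34.5% to 39.7% of overlaps. For MT2C_Mm alone the leading overlap was that of the MERVL and MT2 set in every library. Its 10 nt share was 27.96% and 29.76% in the knockdown and 37.58% and 13.996% in the wild type. These values were near those of the set except in knockdown replicate 2. The set thus largely followed this name, of which a single chromosome 17 insertion gave 49.1% of reads. For MT2A, MT2B, MT2B1 and MT2B2 together the share was 0.478% and 95.2% in the knockdown and 8.12% and 89.4% in the wild type, which spans nearly the whole scale within each group. For MERVL-int, MERVL_2A-int and MT2_Mm 10 nt led in all 4 libraries, at 23.3% and 21.6% in the knockdown and 21.6% and 39.0% in the wild type. This was below the share of MLT2 and LTR names in knockdown replicate 2 and above it in the other libraries. With each distinct sequence counted once, the 10 nt shares of MERVL-int, MERVL_2A-int and MT2_Mm were 9.80% and 12.1% in the knockdown and 15.7% and 18.5% in the wild type.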

How the data were processed

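Small RNA libraries from total RNA of whole testis, with adaptors ligated to both ends and a size selection before sequencing per the labels' protocol, were deposited as 1 table of distinct sequences. Its columns hold raw read counts made by the authors, with no normalization, an annotation class, family and name, and a ratio that equals 1000000 divided by the reads of mature miRNAs of the library (0.512 and 0.539 in the knockdown, 0.499 and 0.716 in the wild type), which the authors deposited as a scaling factor. Where the table calls the libraries knockouts, the labels' word knockdown was kept. The submitters' processing notes name cutadapt and mm39 (GRCm39 in Ensembl) without saying what each was for. Which aligner was used, with how many mismatches, and which annotation class took precedence is not given in the sources used here.

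A sequence stands on several lines where it has several annotations, always with the same count, and each sequence was counted once per library, which removed 6491165 of 12700077 lines. The annotated name of an ERVL sequence differed between libraries for 15.8% of those found in more than 1 library (19.1% of their reads), so each sequence was given the name with most reads over all libraries. RPM divide by all counted reads of the library. Reads per name were tested with edgeR 4.0.16 (R 4.3.3, robust quasi-likelihood F test, TMM factors of 0.964 to 1.03, Benjamini-Hochberg adjustment at 0.05) over names with 1 CPM in at least 2 libraries. The biological coefficient of variation was 0.39. The procedure was also run on simulated counts with known changes. These had a smaller coefficient of variation than the libraries, so they do not show which changes would be found at the spread seen here. DESeq2 1.42.0 was an alternative. Other comparisons used exact permutation tests over libraries in Python 3.11.15 (scipy 1.17.1).

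Sequences were matched to GRCm39 without mismatches on both strands and annotated with GENCODE M39. A main place joins 1-place reads of a name on 1 strand with gaps of at most 2 kb. MERVL copies were clusters of MERVL-int and MERVL_2A-int places spanning 3 to 8 kb with a stop-free frame of at least 1100 codons, which also gave their strand. A Wilson 95% interval of a share of a set of names reached at most 0.701 points to either side. Intervals and floors cover counting error alone, as reads copied by PCR do not count molecules.

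The members, lists and tests were chosen with earlier results of these data known. Named were all MERVL and MT2 names tested, the 8 MLT2 or LTR names and the 4 other names of highest mean RPM, and the 2 names of lowest unadjusted p in each direction. Alternatives were DESeq2, library size or miRNA scaling, no filter on low counts, names as deposited, a window of 24 to 32 nt, distinct sequences in place of reads, no leading sequence of each name, a replicate block, each library left out, and, added after seeing the data, subsets of reads by their places, and miRNA scaling and each library left out for reads by strand and with over 10 places.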

Additional observations from a re-analysis of the deposited data

How the results depend on the processing

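The count of called ERVL names was 0 under DESeq2, library size scaling, miRNA scaling, no filter on low counts, names as deposited, the 24 to 32 nt window, no leading sequences and the replicate block, and it ranged from 0 to 8 when each library was left out. Without knockdown replicate 1 it was 1 (LTR41C), with 1.03% of all names called, and without knockdown replicate 2 it was 8 (ERVL-E-int, LTR16C, LTR41C, MER70B, MT2B1, RLTR28, RLTR35B_MM and RMER10A), with 6.79% of all names called, where the lone library left is assumed to vary like the others. With the replicate number as a block, 0 ERVL names and 1 of all names were called. The correlation of the deviations of equal-numbered libraries was 0.25, and the labels do not tie the numbers.

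The differences between MERVL and MT2 names and MLT2 and LTR names kept their sign when each library was left out, with ranges of 15.2 to 17.5 points for 29 to 31 nt, -8.90 to -6.29 points for U at base 1, 8.48 to 10.4 points for A at base 10 and 9.92 to 12.7 points for 10 nt overlaps. Of the differences between knockdown and wild type, those of the level, U at base 1 and A at base 10 of MLT2 and LTR names also kept their sign (0.19 to 0.33 in log2 RPM, 1.06 to 3.16 points and 0.99 to 6.61 points), and 5 others did not. With each library left out in turn, the difference of the MERVL and MT2 level ranged from -0.0060 to 0.51 in log2 RPM, its 29 to 31 nt share from -12.1 to 10.1 points, its U at base 1 from -3.25 to 2.5 points and its A at base 10 from -3.18 to 2.77 points, and the 29 to 31 nt share of MLT2 and LTR names from -10.1 to 5.27 points. The U share of MERVL and MT2 names differed by 0.37 points in the 24 to 32 nt window. Their base 10 share differed by 0.81 points over distinct sequences and by 0.46 points without leading sequences, and that of MLT2 and LTR names by -0.90 points over distinct sequences. The cause was not tested.

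Single names turned round as follows in log2. Under miRNA scaling MT2A was -0.018, MT2B2 -0.10 and LTR52 -0.10. Without the leading sequence LTR52 was -0.041, MLT2B1 0.14, LTR16C 0.23 and LTR41C 0.72. With each library left out the ranges were -0.11 to 0.64 for MT2C_Mm, -1.95 to 0.10 for MT2B1, -0.22 to 0.019 for MT2B, -0.12 to 0.36 for MT2A, -0.30 to 0.55 for MT2B2, -0.36 to 1.06 for LTR67B, -0.42 to 1.23 for MLT2B3, -0.14 to 0.57 for LTR52, -0.26 to 0.49 for MLT2B2, -1.95 to 0.39 for LTR16C, -1.01 to 0.048 for RMER15 and -0.32 to 0.47 for RMER15-int. In all, 360 of 398 alternative values kept their direction and side of the threshold.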

Other observations

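All ERVL reads together resembled those of neighbouring retrovirus families in how the libraries were ordered by length. Reads of 29 to 31 nt took 17.04% and 37.8% of ERVL reads in the knockdown and 31.5% and 30.3% in the wild type. For ERVL-MaLR, the non-autonomous relatives of ERVL, the shares were 14.9% and 35.0% in the knockdown and 30.8% and 31.4% in the wild type. For ERVK, the class II retroviruses that include IAP, they were 21.1% and 41.0% in the knockdown and 36.2% and 34.9% in the wild type. Knockdown replicate 1 was the lowest library and knockdown replicate 2 the highest in each of these 3 families. A at base 10 took 28.1% and 33.1% of ERVL reads in the knockdown and 31.3% and 30.5% in the wild type, and 29.2% and 31.8% of ERVK reads in the knockdown and 33.1% and 33.6% in the wild type.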
